A study of Mus musculus with 16 samples.

Results

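The miR-30 family was followed through 8 mature miRNAs, chosen by name from the deposited table: mmu-miR-30a-5p, mmu-miR-30b-5p, mmu-miR-30c-5p, mmu-miR-30d-5p and mmu-miR-30e-5p, and the 3p arms mmu-miR-30a-3p, mmu-miR-30c-2-3p and mmu-miR-30e-3p (mmu, for mouse, is left out from here on). These are 8 of 1381 rows, each name stands on 1 row, and all 8 passed the filter on low counts that left 568 miRNAs for testing. The small RNAs were from bone-marrow-derived dendritic cells of 4 wild-type C57BL/6 mice. Red cells had been lysed before culture, and the labels give mice aged 8 weeks except mouse 4, labelled as 7 weeks old; they say male for all samples but the LPS culture of mouse 2. Cells of each mouse gave 4 libraries, 1 for each of the 4 groups. Controls had no stimulation. The LPS group received lipopolysaccharide, the bacterial product sensed by TLR4, on day 8 (1 µg/mL, 6 h). In the quercetin group the cells had quercetin aglycone, a flavonol from plants, at 25 µM on day 5 and again on day 7. The fourth group had this quercetin treatment and then the same LPS.

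MicroRNAs of this family are cut from hairpin precursors, whose left and right arms give the 5p and 3p products. A mature miRNA guides Argonaute to messenger RNAs that pair with its seed, bases 2 to 8 from the 5′ end, so products with one seed can act on overlapping sets of targets. The 5p arms of miR-30 are the abundant guide strands in most tissues and are known for repressing Snai1, a driver of epithelial-to-mesenchymal transition, the Notch ligand Dll4 and the autophagy gene Becn1; the 3p arms carry other seeds.

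The sequences below show which products share a seed and how little separates some of them. RefSeq mature sequences (GRCm38.p6) were found for 6 of the 8 members; miR-30b-5p and miR-30d-5p are named only. Capitals mark the seed.
miR-30a-5p: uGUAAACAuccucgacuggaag
miR-30e-5p: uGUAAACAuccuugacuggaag
miR-30c-5p: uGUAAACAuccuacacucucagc
miR-30a-3p: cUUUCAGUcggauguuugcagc
miR-30e-3p: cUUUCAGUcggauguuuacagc
miR-30c-2-3p: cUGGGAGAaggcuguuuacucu
miR-30c-1-3p: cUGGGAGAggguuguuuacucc
The first 3 share the seed GUAAACA and their first 12 bases. miR-30a-5p and miR-30e-5p differ by 1 substitution, C13U, with the miR-30a base first and positions counted from the 5′ end. Their 3p arms share the seed UUUCAGU and also differ by 1 substitution, G18A. miR-30c-2-3p has a seed of its own among the members, UGGGAGA, which it shares with miR-30c-1-3p, the 3p product of the other miR-30c hairpin, from which it differs by A9G, C12U and U22C. How the authors assigned reads that fit both miR-30a and miR-30e is not given in the sources used here, so the split between these near-identical products is uncertain. Without their sequences, miR-30b-5p and miR-30d-5p could not be compared in this way. Their counts may be open to the same uncertainty.

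In GRCm38.p6, miR-30a-5p lies at chr1:23272274-23272295 and miR-30a-3p at chr1:23272315-23272336, both on the plus strand, in a hairpin that overlaps no other annotated gene. The Mir30c-2 hairpin, exonic in the long noncoding RNA gene Gm27028, gives miR-30c-2-3p at chr1:23291754-23291775 on the same strand. miR-30e-5p at chr4:120772660-120772681 and miR-30e-3p at chr4:120772618-120772639 lie on the minus strand within an intron of Nfyc, which encodes a subunit of the transcription factor NF-Y and is transcribed in the same direction. miR-30c-5p is made with the same sequence from 2 hairpins, Mir30c-1 (chr4:120769584-120769606, minus strand, also intronic in Nfyc) and Mir30c-2 (chr1:23291714-23291736), and its counts cannot be divided between them. Mir30b and Mir30d are neighbours at another locus.

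Counts of reads per mature miRNA summed to between 8668513 and 13949915 in the 8 libraries without quercetin and to between 6459654 and 9041030 in the 8 with it, so depth moved with quercetin, and its part in the results was not tested. Counts of the myeloid markers (miR-223-3p, both miR-142a arms, miR-155-5p and miR-511-3p) summed to 50772 to 101821 CPM (reads of a miRNA scaled to a common library total), none of them at 0 in all libraries, but no marker list here separates dendritic from other myeloid cells. Control 3 deviated from its group like the libraries of mouse 4 (r from 0.47 to 0.67 across miRNAs) and not like those of mouse 3 (-0.47 to -0.17). Control 4 was below 0 with its own mouse (-0.32 to -0.15) and above 0 with mouse 3 (0.025 to 0.545). The 2 controls may thus be exchanged. The labels were kept, and values without both controls are given where they change a call. Ratios within a mouse and the mouse block rest on these labels. The library of quercetin and LPS from mouse 2 stood apart in stromal markers, as described below.

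Levels are CPM on edgeR's TMM scale, as mean ± SD over n = 4 libraries; the printed sequences are 22 or 23 bases long, so levels were compared between miRNAs without scaling for length. In controls miR-30d-5p stood at 16472 ± 3249 CPM, rank 15 of the 568 tested miRNAs. miR-30e-5p followed at 3664 ± 1119, miR-30c-5p at 2389 ± 305, miR-30b-5p at 1540 ± 409 and miR-30a-5p at 965 ± 338, which put the 5p arms between ranks 15 and 67. The 3p arms were rarer: 383 ± 41.6 CPM for miR-30e-3p, 44.6 ± 9.49 for miR-30a-3p and 4.63 ± 1.11 for miR-30c-2-3p, at ranks 95, 201 and 363. Between neighbours in this order the 4 controls overlapped for miR-30b-5p and miR-30a-5p and for no other pair, and miR-30b-5p was above miR-30a-5p in each of the 4. With LPS the order was the same, and miR-30c-5p also overlapped miR-30b-5p. In quercetin libraries miR-30b-5p moved ahead of miR-30c-5p in mean level, at 2612 ± 798 against 2370 ± 582 CPM without LPS and 2507 ± 505 against 2498 ± 591 with it, but the values of these neighbours overlapped in both groups. With quercetin alone miR-30b-5p also overlapped miR-30e-5p, at 3069 ± 766 CPM, and with quercetin and LPS miR-30c-5p overlapped miR-30a-5p, at 1395 ± 413.

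**Figure D1:**
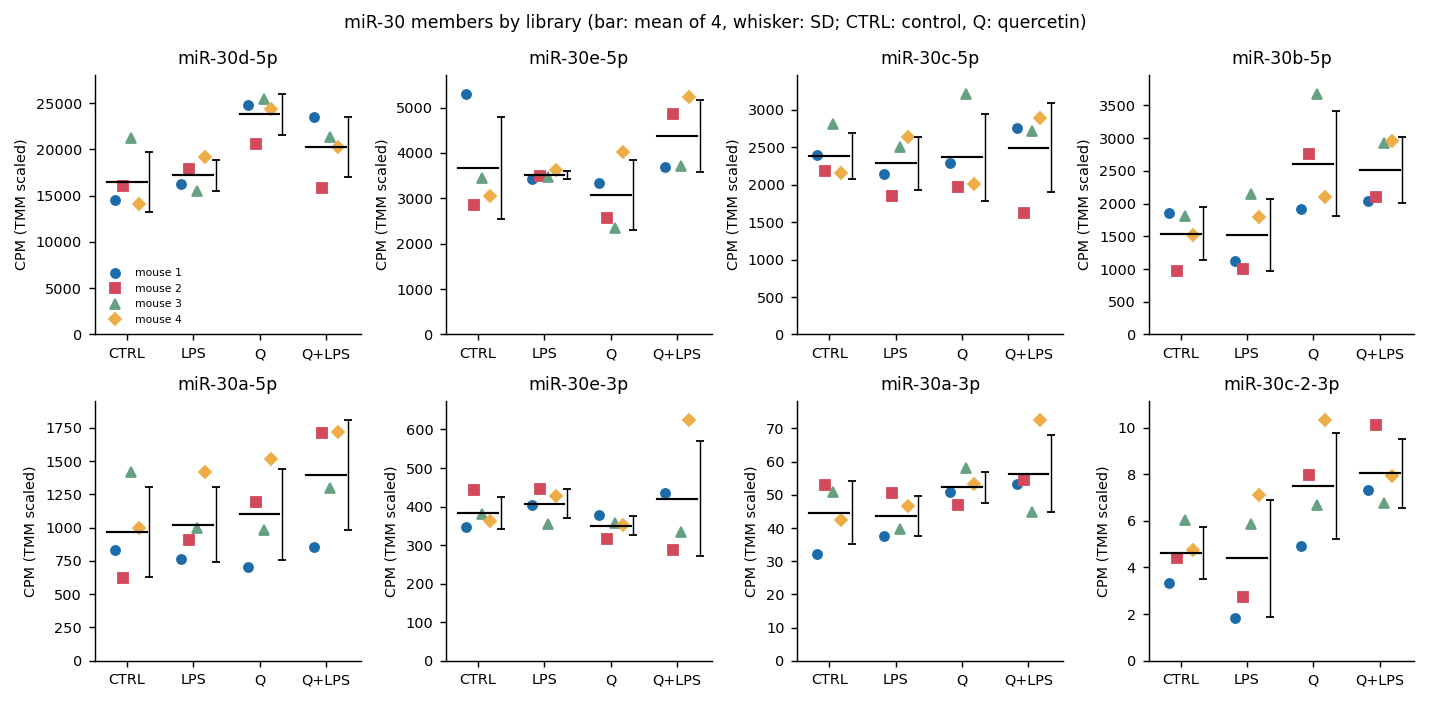
CPM on the TMM scale (linear axes from 0, a different range in each panel) for the 8 miR-30 members in each of 16 libraries; points are libraries, coloured by mouse, bars are means of 4 and whiskers are SD. miR-30b-5p spans 967 to 2146 CPM without quercetin and 1916 to 3678 with it, while the 2 sets of libraries lie over each other for miR-30c-5p and miR-30e-5p.

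The 5 guide arms together took 2.46% ± 0.334 of all counts in controls, 2.28% ± 0.341 with LPS, 3.52% ± 0.230 with quercetin and 3.32% ± 0.420 with quercetin and LPS (SD, n = 4). Every library with quercetin, from 2.91% to 3.80%, lay above every library without it, from 1.86% to 2.82%. How many miRNAs of the whole series were separated in this way on the percent scale was not examined. On the TMM scale the summed 5p level ran from 26124 to 35669 CPM with quercetin and from 21856 to 30687 without, so there the sets overlapped. These sums follow miR-30d-5p, which made up 65.7% ± 5.51 of the 5p counts in controls, 67.4% ± 3.45 with LPS, 72.2% ± 1.94 with quercetin and 65.0% ± 5.14 with both. The share of miR-30e-5p was 14.8% ± 4.46 in controls, with 21.2% in control 1, and 9.34% ± 2.21 with quercetin alone, while it was 13.8% ± 0.773 with LPS and 14.3% ± 3.52 with quercetin and LPS. That of miR-30b-5p was 6.15% ± 1.40 in controls, 5.93% ± 2.09 with LPS, 7.95% ± 2.30 with quercetin and 8.10% ± 1.36 with both. All these shares are descriptions, with no test.

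**Figure D2:**
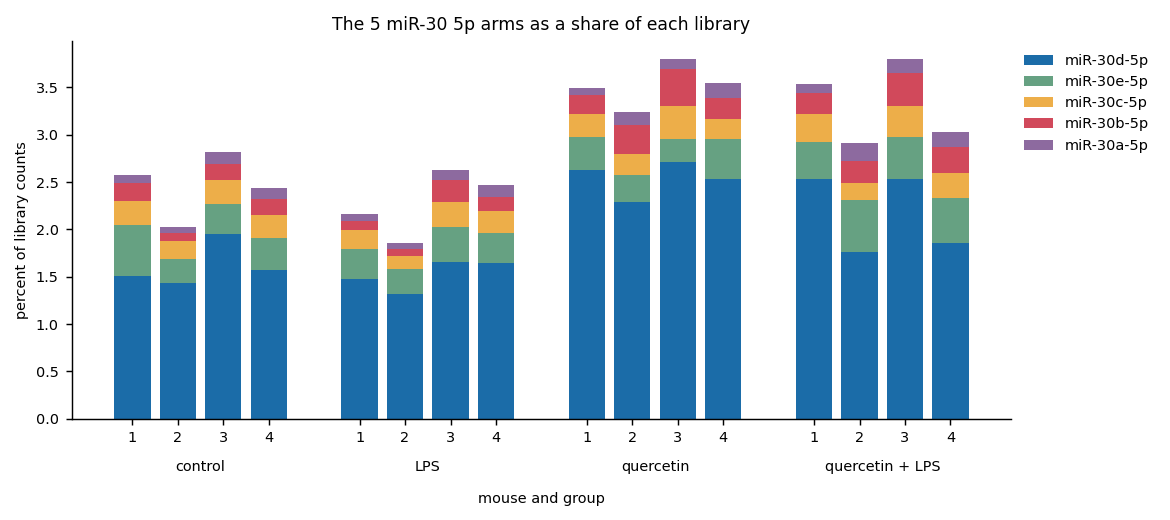
Percent of all counts of a library (vertical axis) taken by the 5 miR-30 5p arms, stacked by member, for each mouse in each of the 4 groups. The bars with quercetin reach 2.91% to 3.80% and those without reach 1.86% to 2.82%. In each bar miR-30d-5p is the largest segment. On the TMM scale the summed levels with and without quercetin overlap.

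The comparison of LPS with control asks what 6 h of LPS did to these miRNAs in cells without quercetin. None of the 8 members passed: edgeR's quasi-likelihood test called 0 of 8 at an adjusted p under 0.05, none had an unadjusted p under 0.05, and DESeq2 and limma-voom also called none. Of all 568 miRNAs 0.528% were called, and 4.58% had an unadjusted p under 0.05. The log2 fold changes lay between -0.08 and 0.09, with a median of -0.03 beside 0.02 for all miRNAs, and the adjusted p was 0.9995 for each member. miR-30d-5p, for example, was at 16256, 17932, 15479.8 and 19145 CPM in the LPS libraries of mice 1 to 4, within the range of the controls, and its log2 fold change of 0.06 had a 95% interval from -0.30 to 0.43. That of miR-30c-2-3p, the rarest member, was wider, from -0.86 to 0.71. These intervals hold changes that the data do not exclude, and they are not the limit of what the adjusted test could detect.

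Quercetin was compared with control in cells that received no LPS. miR-30d-5p, the most abundant guide of the family, rose and was the one member called: its levels in mice 1 to 4 were 14576, 15996, 21197 and 14120.2 CPM in controls and 24845, 20536, 25439.5 and 24338 CPM with quercetin. Each mouse had more with quercetin, but the groups overlapped, since control 3 was above the quercetin library of mouse 2. The log2 fold change was 0.53 ± 0.17 (SE), with an adjusted p of 0.0451. With 1 of 8 members called higher, 15.8% of all tested miRNAs were called, and 6.87% of all tested were called higher. That call was lost when any of controls 1, 2 and 4 or quercetin libraries 1, 3 and 4 was left out, with adjusted p from 0.0703 to 0.166, and also without mouse 4 (0.229), without controls 3 and 4 (0.0702) and with no filter on low counts (0.269). It held without control 3 or quercetin library 2.

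For miR-30b-5p the same comparison gave 1854, 967, 1812 and 1525 CPM in the controls of mice 1 to 4 and 1916, 2759.9, 3678 and 2096 CPM with quercetin. The groups did not overlap, though mouse 1 differed by 0.05 on the log2 scale and mouse 2 by 1.51; among all miRNAs 21.5% did not overlap in this comparison, 10.4% with the higher values in the quercetin group. The log2 fold change was 0.76 ± 0.29, with an adjusted p of 0.0957 in the test without pairing and 0.0467 with the mouse as a block. The block took controls 3 and 4 as labelled. miR-30c-2-3p was also higher with quercetin in each mouse, at 4.92 to 10.3 CPM against 3.33 to 6.03 CPM, with overlapping groups and a log2 fold change of 0.69 ± 0.37 (adjusted p = 0.244). miR-30e-5p, at -0.26 ± 0.22 (adjusted p = 0.485), was lower in 3 of 4 mice; control 1, at 5302 CPM, was the highest of its group, and without it the log2 fold change was 0.0042. The log2 fold changes of the other members lay between -0.13 and 0.23. The median of the 8 was 0.21, beside -0.05 for all miRNAs.

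Quercetin with LPS was then compared with LPS alone, the contrast between LPS-treated cells with and without quercetin. Without the block edgeR called 0 of 8 members while 22.9% of all miRNAs were called, 8.63% as higher; 2 members had an unadjusted p under 0.05, as had 37.5% of all miRNAs. Those were miR-30b-5p and miR-30c-2-3p, and both passed with the mouse as a block. With that block 54 of all 568 miRNAs were called higher and 90 lower. DESeq2 called 3 members, beside 81 of all 568 miRNAs higher and 77 lower. limma-voom called 1 member, beside 56 of all 568 higher and 88 lower. All 8 log2 fold changes were above 0 on the TMM scale, as were 42.3% of those of all miRNAs, with a median of 0.34 beside -0.13. That background moves with the scaling: with 1 library of these groups left out and the rest rescaled, the median of all miRNAs lay between -0.06 and 0.08, above 0 in 7 of 8 fits, and that of the members between 0.46 and 0.54; without mouse 4 they were -0.12 and 0.27.

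miR-30b-5p was at 1125, 1004, 2146 and 1798 CPM with LPS in mice 1 to 4 and at 2036, 2105, 2931 and 2957 CPM with quercetin and LPS. Each mouse was higher with quercetin, but LPS library 3 lay above the quercetin libraries of mice 1 and 2. Its log2 fold change was 0.72 ± 0.29, with an adjusted p of 0.0792 and, with the block, 0.0335. It was also called without LPS library 3 (1.10, adjusted p = 0.0150), LPS library 4 (0.0434) and the quercetin and LPS libraries of mouse 1 (0.0434) and mouse 2 (0.0415). miR-30c-2-3p was at 1.85, 2.73, 5.87 and 7.13 CPM with LPS and at 7.31, 10.1, 6.77 and 7.94 CPM with both. The difference came largely from mice 1 and 2, at 1.98 and 1.89 on the log2 scale, against 0.21 and 0.16 in mice 3 and 4. For this member the log2 fold change was 0.87 ± 0.37 (adjusted p = 0.0955; 0.0374 with the block). It was also called without LPS library 3 (1.23, adjusted p = 0.0406) and without LPS library 4 (1.37, adjusted p = 0.0206). Among the 8 members it had both the largest SE here and the lowest counts, 22 to 87 per library over the whole series.

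miR-30d-5p stood at 23533, 15836, 21291 and 20224 CPM with quercetin and LPS, against the LPS values given above. It was higher in mice 1, 3 and 4 and lower in mouse 2, with a log2 fold change of 0.23 ± 0.17 (adjusted p = 0.361). With any 1 of these 8 libraries left out, which also renews the filter and the scaling, the log2 fold change was higher, from 0.30 to 0.55. It passed in 1 of these 8 fits, without the quercetin and LPS library of mouse 2 (0.55, adjusted p = 0.0420), and also with library size scaling (0.51, adjusted p = 0.0362). miR-30e-5p was at 3432 to 3629.5 CPM in the LPS libraries and at 3692 to 5228 CPM with both. The groups did not overlap, as for 20.2% of all miRNAs here (6.87% with the higher values under quercetin), but its log2 fold change of 0.32 ± 0.22 had an adjusted p of 0.342.

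LPS was also compared within quercetin-treated cells. Here edgeR called 0 of 8 members and 0.352% of all miRNAs; 1 member had an unadjusted p under 0.05 (7.22% of all miRNAs), and DESeq2 and limma-voom called none. That member was miR-30e-5p, at 3347, 2556, 2351 and 4021 CPM with quercetin in mice 1 to 4 and at 3692, 4851, 3719 and 5228 CPM with LPS added. It was higher with LPS in each mouse, with overlapping groups, and its log2 fold change of 0.51 ± 0.23 had an adjusted p of 0.606. miR-30d-5p was lower in each mouse, at -0.23 ± 0.17 (adjusted p = 0.709). The test of whether the response to LPS differed with quercetin found none of 8 members and none of the 568 miRNAs past the threshold in edgeR, DESeq2 or limma-voom (26 of 568, or 4.58%, and none of the members at an unadjusted p under 0.05). For miR-30e-5p this difference was 0.57 ± 0.32 on the log2 scale (adjusted p = 0.893), with an interval from -0.10 to 1.25. For miR-30d-5p it was -0.30 ± 0.24 (adjusted p = 0.893), so the values of the quercetin effect with and without LPS were not shown to differ.

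**Figure D3:**
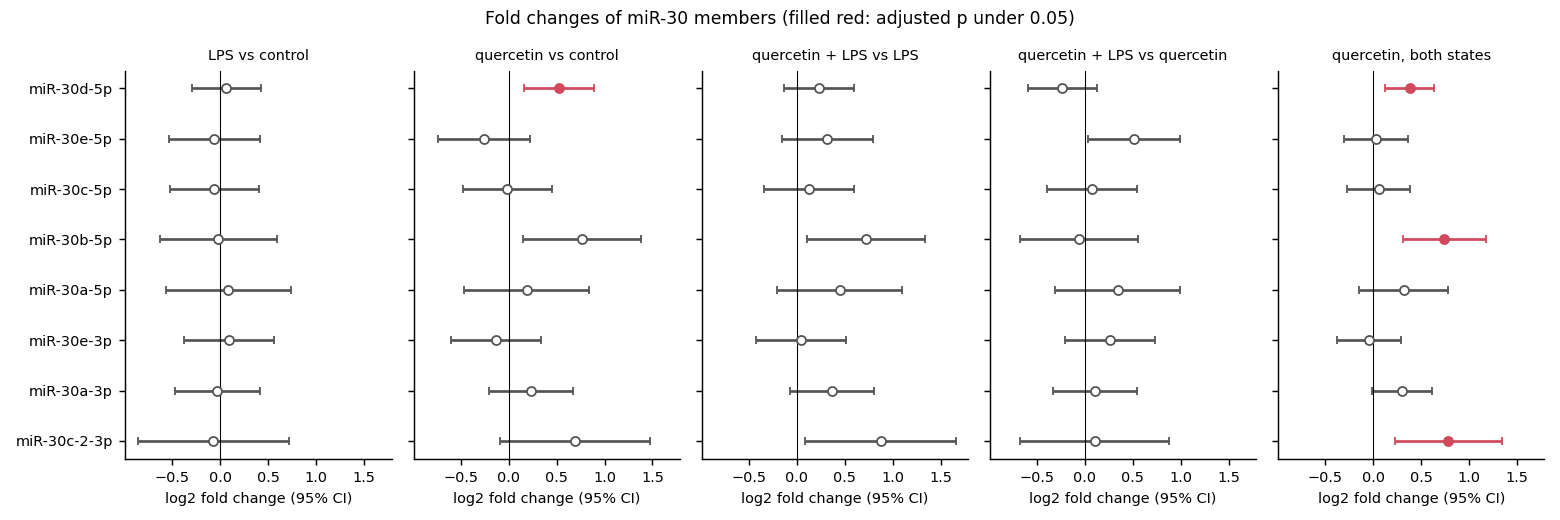
Log2 fold changes (horizontal axis, edgeR, TMM scale) of the 8 members in 5 comparisons; points are estimates, bars are 95% intervals and filled red points have an adjusted p under 0.05. The LPS panel lies between -0.08 and 0.09, and the filled points are miR-30d-5p with quercetin alone and miR-30d-5p, miR-30b-5p and miR-30c-2-3p for quercetin over both LPS states.

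Averaged over cells with and without LPS, which uses the same libraries as the separate quercetin comparisons and is no independent evidence, 3 of 8 members were called higher with quercetin and none lower. Of all miRNAs 36.3% were called, 16.2% as higher. miR-30b-5p rose by a log2 fold change of 0.74 ± 0.21 (adjusted p = 0.0107) and was higher in 8 of 8 pairs of libraries from the same mouse and LPS state. miR-30c-2-3p rose by 0.78 ± 0.26 (adjusted p = 0.0281), also in 8 of 8 pairs, and miR-30d-5p rose by 0.38 ± 0.12 (adjusted p = 0.0219), in 7 of 8. These 8 pairs come from 4 mice, and the mouse of controls 3 and 4 is uncertain, as described above. The share of all miRNAs higher in 8 of 8 pairs was not counted. For none of the members did all 8 quercetin libraries lie above all 8 others; 7.22% of all miRNAs were separated in that way. miR-30b-5p stayed past the threshold under all 27 alternatives run, with adjusted p from 9.4e-04 to 0.0431. Without mouse 4 miR-30d-5p (0.37, adjusted p = 0.0944) and miR-30c-2-3p (0.86, adjusted p = 0.0514) were no longer called, nor was miR-30d-5p with no filter on low counts (0.0737).

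The remaining 5 members did not pass in this average. miR-30a-3p was at 0.30 ± 0.15 (adjusted p = 0.123), higher in 7 of 8 pairs. It was called under each of the 3 other scalings, with adjusted p from 0.00621 to 0.0449. It was also called in 8 of 17 fits with libraries left out and in 2 of 7 other settings. Its levels were 32.1 to 52.9 CPM without quercetin and 44.9 to 72.5 CPM with it. miR-30a-5p was at 0.32 ± 0.22 (adjusted p = 0.279). The other 3 members were near 0 on the TMM scale: miR-30c-5p at 0.06 (95% interval from -0.27 to 0.39), miR-30e-5p at 0.03 (-0.30 to 0.37) and miR-30e-3p at -0.04 (-0.37 to 0.29, above 0 under each of the other scalings). Over the 5 guide arms the values thus ran from 0.03 to 0.74, and the differences between members were not tested.

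**Figure D4:**
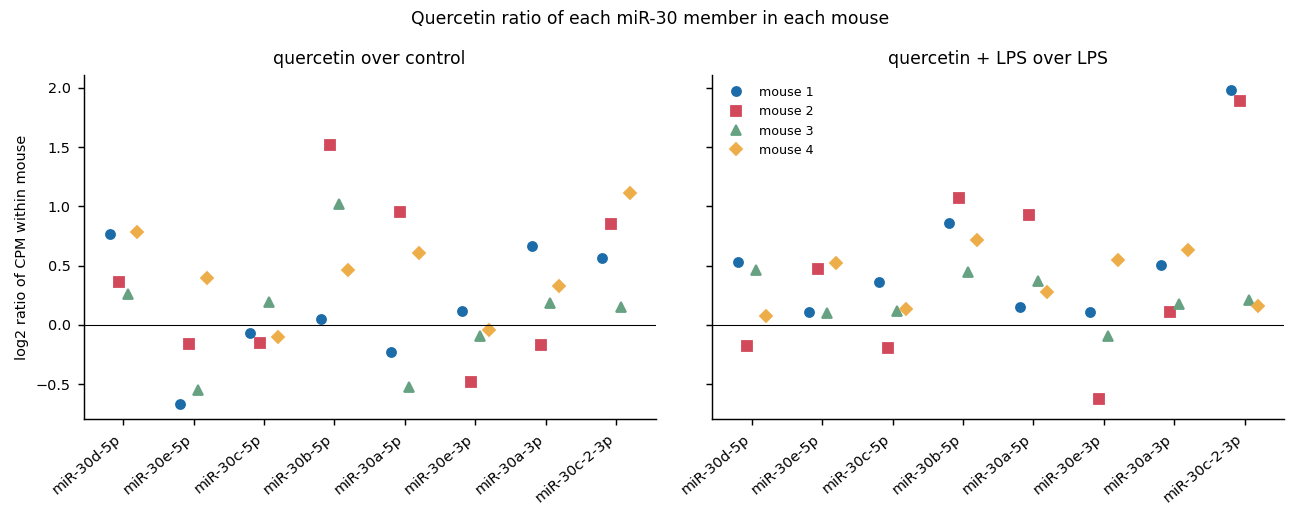
Log2 ratio of CPM with over without quercetin in each mouse (vertical axis), for cells without LPS (left) and with LPS (right); each point is 1 mouse. For miR-30b-5p and miR-30c-2-3p all 8 points lie above 0, with 0.05 and 0.15 as the lowest, and for miR-30d-5p 7 of 8 do.

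Markers of other cell types moved with quercetin in the same libraries. The erythroid list (miR-451a, both miR-144 arms and miR-486a-5p) summed to 397 to 1408 CPM without quercetin and to 1268 to 6647 CPM with it, and 4 of 4 were called higher in the quercetin comparisons with and without LPS. The stromal list (miR-143-3p, both miR-145a arms, both miR-199a arms and miR-214-3p) summed to 24.4 to 454 CPM without and 84.0 to 4471 CPM with quercetin; 0 of 6 were called without LPS and 4 of 6 with it. The highest value, 4471 CPM, was that of quercetin and LPS in mouse 2. In this library miR-30c-5p (1618 CPM), miR-30d-5p and miR-30e-3p (288 CPM) were the lowest of their group, and miR-30c-2-3p (10.1 CPM) was the highest. miR-30c-2-3p stood in the same order as the stromal sum in the quercetin libraries, at 4.92, 6.70, 7.96 and 10.3 CPM. The stromal sums beside these were 84.0, 97.7, 574 and 1240 CPM. miR-30a-5p had this order too, at 707, 984, 1196 and 1514 CPM. In the controls miR-30c-2-3p again followed the order of the stromal sum, and miR-30a-5p did not. In both groups with LPS neither did. No other member had the order of the stromal sum in any group. Orders of 4 libraries can match by chance, the more so with 8 members looked at in 4 groups, and were not tested. Orders beside the erythroid sum are not given here. Of 5 epithelial markers 1 was called higher in the average over both LPS states, and no myeloid, endothelial or lymphocyte marker was called in any comparison. The part of these other cells in the miR-30 values was not tested, and in bulk RNA fewer cells of a type and less RNA per cell cannot be told apart.

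The 3p products of miR-30b, miR-30d and miR-30c-1, which come from the other strand of the same hairpins, were tested beside the 8 members, and none of the 3 was called in any comparison. In the average over both LPS states miR-30b-3p had a log2 fold change of 0.14 ± 0.27 (adjusted p = 0.729) and miR-30d-3p of 0.07 ± 0.14 (adjusted p = 0.732). miR-30c-1-3p was at -0.46 ± 0.20 (adjusted p = 0.0816), opposite in sign to miR-30c-2-3p, with which it shares a seed. The ratio of miR-30c-2-3p to miR-30c-1-3p, chosen after its values were seen and not tested, had geometric means of 0.122 in controls, 0.129 with LPS, 0.309 with quercetin and 0.324 with both, and was higher with quercetin in 8 of 8 pairs. For miR-30d the ratio of 5p to 3p was 132 in controls, 128 with LPS, 197 with quercetin and 135 with both, higher with quercetin in 6 of 8 pairs. For miR-30b it was 55.03, 47.6, 85.0 and 74.8 in the same order, higher in 4 of 8 pairs. Of other miRNAs with a member's seed, miR-384-5p had 2 counts in all libraries together and miR-6958-5p had 1.

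Where both arms of one hairpin are members, their ratio within a library needs no scaling. For miR-30a the ratio of 5p to 3p had geometric means of 21.1 in controls, 23.0 with LPS, 20.3 with quercetin and 24.2 with both. For miR-30e it was 9.31, 8.63, 8.57 and 10.7. None of the 8 comparisons of these ratios differed beyond the spread between libraries: the smallest p was 0.314 (exact two-sided permutation test, 4 against 4 libraries, in which 0.0286 is the smallest possible), and each adjusted p was 0.943. A single ratio at the smallest possible p would not pass after adjustment over the 8.

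Members did not vary as one over the 16 libraries. Across the 28 pairs of members, Pearson's r of log2 CPM ran from -0.25 to 0.70 with a median of 0.26, given as a description since libraries share mice and treatment. The highest was between miR-30a-5p and miR-30c-2-3p, whose hairpins lie on the same stretch of chromosome 1, and the lowest between miR-30d-5p and miR-30e-5p. Close to the highest, at 0.69, were miR-30b-5p and miR-30c-2-3p, which come from different loci. The neighbours miR-30b-5p and miR-30d-5p were at 0.53. With group means taken out, these 2 pairs were at 0.42 and 0.05, and miR-30a-5p with miR-30c-2-3p stayed at 0.70. Differences between the groups thus enter the values over all 16 libraries. The arms of one hairpin were at 0.40 for miR-30a and 0.20 for miR-30e. Among 302 other miRNAs with a mean of at least 10 CPM, the 2 most like each member were miR-872-3p (0.91) and miR-511-3p (0.87) for miR-30b-5p, miR-122-5p (0.86) and miR-1948-3p (0.82) for miR-30d-5p, and miR-450b-5p and miR-142a-3p (both 0.88) for miR-30e-5p. For miR-30a-5p they were miR-101b-3p (0.90) and miR-9-5p (0.88), and for miR-30c-5p miR-501-5p and miR-200b-3p (both 0.68). Among the 3p arms, miR-30c-2-3p was most like miR-872-3p (0.87) and miR-29a-5p (0.83), miR-30a-3p like miR-182-5p (0.84) and let-7c-5p (0.83), and miR-30e-3p like miR-421-3p and miR-181d-5p (both 0.80).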

How the data were processed

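Small RNAs of 16 libraries (miRNeasy and TruSeq Small RNA kits, per the labels' protocols) were analysed from a deposited table of counts of reads per mature miRNA, not normalized by the authors. Per the submitters' processing notes, cutadapt and the mm9 genome were used; the aligner and the counting rule are not given in the sources used here. The table has 1381 rows and 1377 names. The 4 names on 2 rows were summed; 1 row with text among its counts and 4 rows whose counts looked exchanged between neighbours were left out, none of them a miR-30 member, which left 1372 names. Depth was 6459654 to 13949915 counts per library.

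The main test was edgeR 4.0.16 (R 4.3.3): filterByExpr by group (568 miRNAs), TMM scaling, a quasi-likelihood fit with 1 coefficient per group over 16 libraries, and Benjamini-Hochberg adjustment over all tested miRNAs with a threshold of 0.05. SE is the log2 fold change over the square root of F. Adjusted p-values of miRNAs come from this fit where no other tool is given. Alternatives were 3 other scalings, 2 other filters, DESeq2 1.42.0, limma-voom (limma 3.58.1), a mouse block, fits to the groups compared only, libraries left out, and, chosen after seeing the data, the 4 exchanged rows kept. On data simulated for LPS against control 556 miRNAs were tested, 97 of them changed by 1 on the log2 scale and 99 by 2. Of these changes 52.6% and 91.9% were recovered, with 7 false calls among the unchanged miRNAs. The real comparison called 3 of 568 miRNAs, and recovery may be lower where fewer miRNAs change. Arm ratios were tested by exact permutation. Likeness between miRNAs used log2 CPM with a prior count of 2. Promoters and targets were not analysed here.

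Members, marker lists and tests were chosen with earlier results of these data known. The named miRNAs are the 8 members, other arms of the miR-30 hairpins, miRNAs sharing a seed with a member, and the 2 most like each member. Titles number the samples by mouse and the series names 4 mice, so equal numbers were taken as the same animal. Deviations from group means had a mean r of 0.14 between libraries of the same mouse (24 pairs, -0.47 to 0.65) and of -0.04 between different mice (72 pairs, -0.58 to 0.67).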

Additional observations from a re-analysis of the deposited data

Results flagged for a closer look

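In the group with quercetin and LPS, miR-30c-5p stood at 1618 CPM in replicate 2 (1617.8 before rounding), against 2718 to 2889.9 CPM in the other 3 libraries; its gap to the nearest library was 0.865 of the range of the group, above Dixon's limit for 4 libraries. It was the only such case among 40 sets of values examined, of which chance gives about 1 in 20. This library also had the highest sum of stromal markers, 4471 CPM.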

How the results depend on the processing

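No member's fold change past the threshold changed sign under any alternative. The arm ratio tests are too small to pass after adjustment, so their alternatives say nothing about stability. Of 1050 member fold changes under alternatives, 32 passed the threshold newly and 12 no longer did. The number of miR-30 members called for quercetin against control went from 1 to 0 with no filter on low counts and without controls 3 and 4, to 2 with the replicate block, and ranged from 0 to 1 with libraries left out. For quercetin and LPS against LPS it went from 0 to 2 with library size scaling, 1 with upper quartile scaling, 1 with RLE scaling, 1 with a mean of at least 10 CPM, 3 with DESeq2, 1 with limma-voom, 2 with the replicate block, and from 0 to 2 with libraries left out. For quercetin over both LPS states it ranged from 1 to 4 with libraries left out, where 143 to 209 of all miRNAs were called. The block, which pairs libraries by mouse, changed no other count of members. Over all miRNAs, calls for LPS against control went from 3 to 1 with library size scaling, 6 with DESeq2, 0 without controls 3 and 4, and 0 to 2 with libraries left out. Those for quercetin against control went from 90 to 55 with a mean of at least 10 CPM, 58 without controls 3 and 4, and 46 to 76 with libraries left out. Those for quercetin and LPS against LPS went from 130 to 69 with a mean of at least 10 CPM, 70 when only the groups compared were fitted, and 79 to 133 with libraries left out. Those for LPS within quercetin went from 2 to 4 with DESeq2 and from 1 to 7 with libraries left out, and those for quercetin over both states from 206 to 111 with a mean of at least 10 CPM. A filter on the mean, fits to fewer groups and fewer libraries test fewer miRNAs or samples; for the other settings the cause was not tested. Scaling moved the split of higher and lower calls: for quercetin against control from 39 and 51 to 48 and 29 with the upper quartile, for quercetin and LPS against LPS from 49 and 81 to 75 and 50 with library size, 71 and 54 with the upper quartile and 67 and 66 with RLE, and for both states from 92 and 114 to 120 and 85, 125 and 75, and 105 and 97. Leaving out a library also renews the filter and the scaling, so its effect is not that of the library alone. The median log2 fold change of all miRNAs moved with it, from -0.13 to 0.15 for quercetin and LPS against LPS with library size. The median of the 8 members there moved from 0.34 to 0.60. Counts were lowest for miR-30c-2-3p, at 22 to 87 a library; a mean of at least 10 CPM leaves it untested.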
